A study of Mus musculus with 2931 samples.

Results

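The cells described here are the Late Car4- capillaries of the mouse lung at postnatal day 21 (P21), split by the gate through which they were sorted. They were chosen by the authors' subtype label and by the cell names, which give the age, the gate and the plate. There were 531 such cells of 2931 in the series: 217 from the gate named CD31 and 50 from the gate named mesench in the female mouse (FP21), and 182 and 82 in the male mouse (MP21). A further 2 cells of the subtype came through the CD45 gate and were not used. The series holds endothelial cells, the cells that line vessels, from 10 mice of 5 groups by age and treatment, sorted into plates and sequenced cell by cell from libraries made with the transposase Tn5, with no molecular identifiers. Both mice compared here carry the treatment label normal, their tissue is distal lung, and no strain, allele or agent is given in the sources used here; the labels also do not say if a mouse name means 1 animal or several pooled.

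CD31 is the surface protein encoded by Pecam1, a junction molecule of endothelial cells, and CD45, encoded by Ptprc, marks leukocytes. What defined the gate named mesench is not given in the labels; its cells used here are endothelial by the authors' label. In each mouse the 2 gates were sequenced in different runs, and the mesench cells of each mouse came from 2 plates. Within a mouse, gate and run cannot be told apart.

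The alveolar wall is threaded by capillaries of 2 kinds. General capillary cells, which carry little Car4, express Kit, Aplnr, Gpihbp1 and Plvap and are known for roles in capillary repair and in the control of vascular tone. Car4+ capillary cells, also called aerocytes, express Car4, Ednrb, Apln and Emp2 and are known for their thin extensions at the site of gas exchange.

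Marker sums were set beside the label of the cells in both gates. The label is the authors' and may rest on the expression of these same genes, so the sums describe the cells and are no independent check. Summed over 12 general capillary genes, FP21 had 21516 CPM (reads of a gene per 1000000 reads of the sum) in the CD31 gate and 21432 in the mesench gate, and MP21 19900 and 24303. In the Car4+ capillaries of the same mice and gates this sum lay between 4785 and 8626 CPM. Summed over 11 aerocyte genes the Late Car4- cells had 3634 and 2908 CPM in FP21 and 5757 and 4649 CPM in MP21 (CD31, then mesench), against 24286 to 34426 CPM in the Car4+ cells. The sex labels held: Xist had 39372 and 19387 reads in the 2 gates of FP21 and 1 and 0 in MP21, while Ddx3y had 4 and 0 reads in FP21 and 6620 and 5369 in MP21.

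Markers of other lung cells were low in both gates, and the fibroblast markers were lower in sum in the gate named mesench. The 14 fibroblast genes summed to 311 CPM in the CD31 gate and 112 in the mesench gate of FP21, and to 227 and 125 CPM in MP21. Inmt, a methyltransferase of lung fibroblasts, made up most of these sums, with 212 and 67.5 CPM in FP21 and 175 and 68.1 CPM in MP21, and 1 cell gave 54.9% of its CD31-gate reads in FP21 and 1 cell 69.0% of its mesench-gate reads in MP21. The 12 pericyte and smooth muscle genes summed to 87.9 and 28.3 CPM in FP21 and to 183 and 145 CPM in MP21. Col3a1, a fibrillar collagen of fibroblasts, had 14.7 and 0.150 CPM in FP21 and 8.83 and 0.261 CPM in MP21. A single cell gave 67.0% of its CD31-gate reads in FP21, and it was read in 7.83% and 2% of the cells of FP21 and in 7.14% and 6.10% of those of MP21, with overlapping intervals. Of the 10 fibroblast genes tested 7 were lower in the mesench gate of both mice and 0 higher; of the 9 pericyte and smooth muscle genes tested 5 were lower and 0 higher, with the same counts after TMM scaling and 0 called in either list. Over all 12371 genes tested, 37.6% were lower in the mesench gate of both mice in CPM and 16.3% were higher; after TMM scaling 30.6% were lower and 23.2% higher. Among the 3884 genes with a mean of at least 50 CPM, 907 were higher and 1214 lower in the mesench gate of both mice in CPM. After TMM scaling 1333 of them were higher and 833 lower. The counts of every list given here are to be read against these values, and lists of abundant genes against the second set. The share of cells with over 100 CPM of these mesenchymal genes was 29.03% and 20% in the CD31 and mesench gates of FP21, and 35.71% and 21.95% in MP21. The 10 immune genes summed to 27.4 and 18.53 CPM in FP21 and 30.1 and 36.2 CPM in MP21, the 10 epithelial genes to 218 and 213 CPM and to 278 and 194 CPM, and the 4 mesothelial genes to between 0.0300 and 0.221 CPM in all 4 sums. The epithelial sum of the FP21 mesench gate was 417 CPM on plate 1 and 1.10 CPM on plate 2, and 1 cell gave 96.8% of its reads of Ager and 1 cell 72.8% of its reads of Cldn18. Sftpc, surfactant protein C, had 56.5 and 0 CPM in FP21, read in 13.8% of CD31-gate cells and in 0 mesench-gate cells, and 184 and 154 CPM in MP21, read in 23.6% and 6.10% of cells. Mfap4, a microfibril protein of the fibroblast list, had 58.9 and 40.4 CPM in FP21 and 22.3 and 47.4 CPM in MP21. Dcn (fibroblasts), Epcam (epithelium) and Ptprc (leukocytes) were each under 0.2 CPM in all 4 sums. The part of RNA from other cells in the gate differences was not tested beyond leaving out the cells with over 100 CPM of mesenchymal markers.

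The Late Car4- cells made up a like part of the endothelial cells of each gate in FP21 and a smaller part of the mesench gate in MP21. In FP21 they were 217 of 282 CD31-gate cells (76.95%, 95% Clopper-Pearson interval 71.6 to 81.7) and 50 of 65 mesench-gate cells (76.9%, 64.8 to 86.5). In MP21 they were 182 of 238 (76.5%, 70.6 to 81.7) and 82 of 120 (68.3%, 59.2 to 76.5), so the 2 intervals overlap. Car4+ capillaries were 15.6% and 20% of the CD31 and mesench gates in FP21 and 18.49% and 27.5% in MP21. With 2 mice an exact paired test cannot go below p = 0.5, and the intervals cover counting error alone.

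At equal depth the median cell of the mesench gate had fewer genes detected than that of the CD31 gate in both mice. All reads summed to 156538076 and 33300588 in the CD31 and mesench gates of FP21, and to 71435643 and 49747413 in MP21, with between 50689 and 2762315 reads per cell. The median cell of FP21 had 3195 genes in the CD31 gate and 2064 in the mesench gate, and the median cell of MP21 had 1644 and 1690. After each cell was thinned to 50000 reads, which left out 0 cells, the medians were 2190 and 1518 genes in FP21 and 1246 and 1093 in MP21. The ranges between the quartiles overlapped in both mice (1491 to 2809 and 1020 to 2022 genes in FP21, 810 to 2123 and 680 to 1837 in MP21). Between the mice the CD31 gate differed by more (2190 and 1246 genes) than the gates did within either mouse. The difference between the gates was carried by all mesench plates in FP21 (medians 1690 and 1382) and in MP21 (1068 and 1130).

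**Figure D1:**
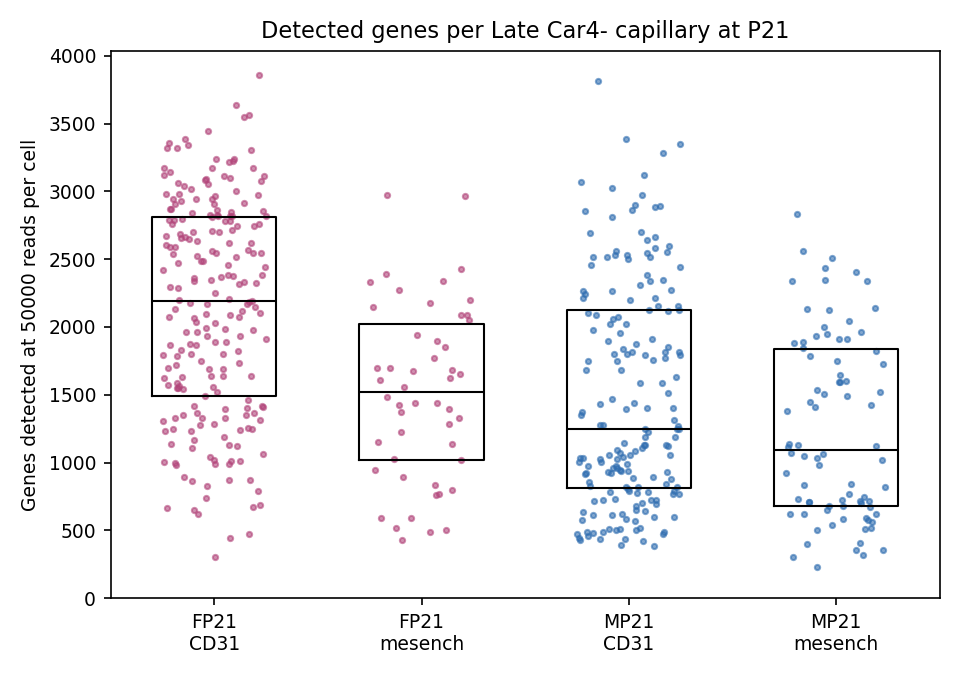
Genes detected in each Late Car4- capillary at P21 after thinning to 50000 reads, by mouse and gate; each point is 1 cell and the boxes span the quartiles with a line at the median. The medians are 2190 and 1518 in FP21 and 1246 and 1093 in MP21, with overlapping boxes.

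The central comparison asked which genes differ between the gates in these cells. Reads were summed per mouse and gate, giving 4 sums, and tested with edgeR's quasi-likelihood test with the mouse as a term, which leaves 1 residual degree of freedom. Of 12371 genes, 1 (0.00808%) was called at a Benjamini-Hochberg adjusted p under 0.05. Before adjustment 750 genes (6.06%) lay under 0.05, 288 of them higher and 462 lower in the mesench gate. The single gene was Ifit1, which encodes an interferon-induced protein that binds foreign RNA. DESeq2 on the same sums called 296 genes, 103 higher and 193 lower, and limma on the mean over cells called 4, all lower, so the number of genes depended on the tool.

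Ifit1 (chromosome 19, 34640871 to 34650009, plus strand, GRCm38) had 69.4 CPM in the CD31 gate and 563 CPM in the mesench gate of FP21, and 54.4 and 539 CPM in MP21. Both mesench values lay above both CD31 values. The fitted log2 change was 3.42 (SE 0.48, 95% interval 2.43 to 4.4, adjusted p = 0.00121 in edgeR). By plate, the mesench cells had 445 and 687 CPM in FP21 and 150 and 1147 CPM in MP21. Younger mice, also with the treatment label normal, had CD31-gate cells sequenced in the same runs as these mesench cells. Those labelled Early or Late Car4- capillaries by the authors were summed per mouse. The 197 such cells of the P7 female mouse had 14.5 CPM and the 122 of the P1 male mouse 1.90 CPM. Mesench-gate Car4- cells (Early and Late) of the P7 female mouse, from a further run, had 0 CPM, but were 9 cells only. All these younger cells differ from the P21 cells in age and, for the Early cells, in subtype.

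The difference in Ifit1 was carried by a few cells with very high counts, while the shares of cells with a read did not differ beyond their intervals. In FP21 the gene had a read in 33 of 217 CD31-gate cells (15.2%, 10.7 to 20.7) and in 5 of 50 mesench-gate cells (10%, 3.33 to 21.8). In MP21 it had one in 22 of 182 (12.1%, 7.73 to 17.7) and 14 of 82 (17.1%, 9.66 to 27.0). In each mouse the intervals overlap. A single cell gave 55.2% of the Ifit1 reads of the mesench gate in FP21 and 2 cells gave 94.3%, and 1 cell gave 54.2% in MP21. Cells over 2500 CPM numbered 0, 2, 0 and 2 in the order FP21 CD31, FP21 mesench, MP21 CD31 and MP21 mesench. In the same order the highest cell had 2336, 5130, 2088 and 11957 CPM. The cut lies just above the highest CD31-gate cell, so the counts of 0 depend on it and nothing is read into the split. Without the cell with the most Ifit1 reads in each of the 4 sums, an alternative added after the values were seen, the mesench sums were 269 and 253 CPM against 58.3 and 46.4 in the CD31 gate, the log2 change was 2.56 and edgeR's adjusted p was 0.522, so 0 genes were called. The call was also lost in other settings, some with a log2 change as large or larger. In edgeR it was 4.18 without mesench plate 1 of both mice (adjusted p = 0.210), 3.82 without cells over 100 CPM of mesenchymal markers (adjusted p = 0.134) and 3.41 with mice unpaired (adjusted p = 0.611). It was 2.47 without mesench plate 2 (adjusted p = 0.949) and 2.24 with cells thinned to 50000 reads (adjusted p = 1.00), and limma on the mean over cells gave 2.04 (adjusted p = 0.0513). Over 12 alternatives Ifit1 was called in 5.

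**Figure D2:**
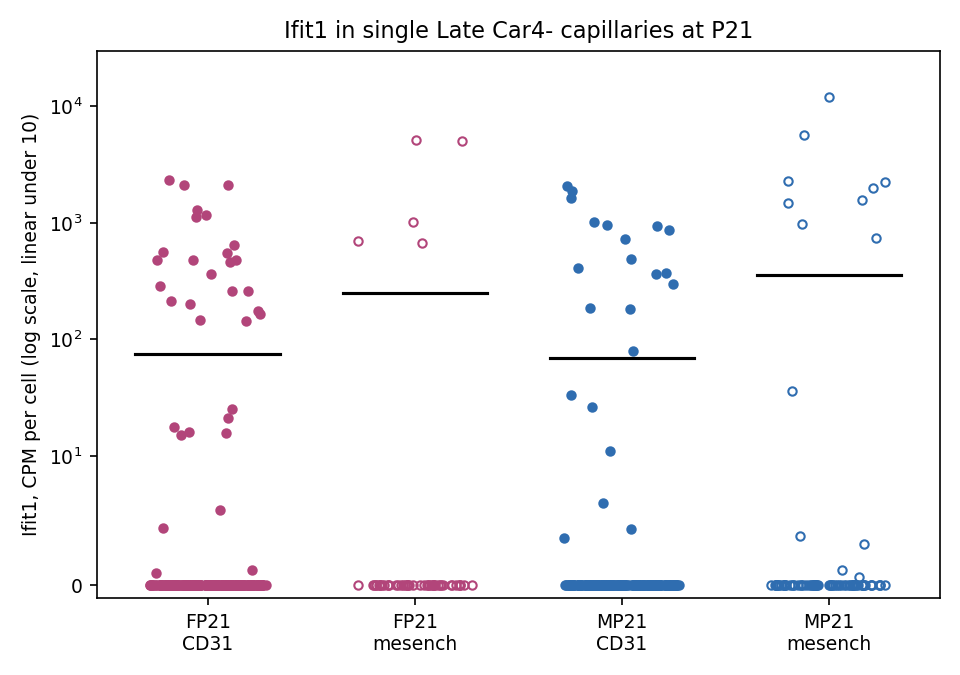
Ifit1 in single Late Car4- capillaries at P21, as CPM of each cell on a log axis that is linear under 10; points are cells and the black line is the mean over cells. In each mouse most cells lie at 0, and 2 mesench-gate cells of each mouse lie over 2500 CPM while 0 CD31-gate cells do. The highest CD31-gate cells lie under that cut, at 2336 CPM in FP21 and 2088 CPM in MP21.

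The sequence before the start of Ifit1 is shown because it is the only gene called, beside that of Igtp, an interferon-induced GTPase of the immunity-related family that was called under other filters. The core GAAANNGAAA, found in response elements bound by interferon-activated factors, was searched on both strands of the 250 bases before the start of each gene in the RefSeq promoter table (GRCm38.p6), and matches are in capitals. A match written with TTTC lies on the minus strand.
Ifit1, chr19:34640639-34640888, plus strand: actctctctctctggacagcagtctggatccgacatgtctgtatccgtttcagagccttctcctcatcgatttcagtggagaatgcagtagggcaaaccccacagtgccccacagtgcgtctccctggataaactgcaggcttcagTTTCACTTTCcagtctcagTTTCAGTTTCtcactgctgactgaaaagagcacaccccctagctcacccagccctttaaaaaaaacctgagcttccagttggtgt
Igtp, chr11:58199306-58199555, plus strand: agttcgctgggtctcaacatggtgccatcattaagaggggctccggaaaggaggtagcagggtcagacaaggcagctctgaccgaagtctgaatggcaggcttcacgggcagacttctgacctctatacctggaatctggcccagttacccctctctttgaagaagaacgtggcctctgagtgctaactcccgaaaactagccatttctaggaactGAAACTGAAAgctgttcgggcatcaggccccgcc
Ifit1 held 2 matches, whose first printed bases lie 104 and 85 bases before the RefSeq start, and Igtp held 1, at 34 bases. The RefSeq start of Ifit1, at 34640889, lies 18 bases inside the GENCODE gene whose coordinates are given above; for Igtp the 2 annotations have the same start. Ifi44, another interferon-stimulated gene, held 0 in its window. Of 32851 promoter windows 2.98% held the core at least once. A match describes the letters in the window and is no evidence of binding.

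The other genes of the interferon list gave 0 calls. Of 12 interferon-stimulated genes 1 was called, and 3 were higher and 3 lower in the mesench gate of both mice in CPM (4 and 3 after TMM scaling). The median log2 change was 0.31, beside -0.24 over all genes tested and 0.11 over the genes of at least 50 CPM. Ifitm3, a membrane protein that blocks viral entry and the most abundant of the list, had 2935 and 1291 CPM in FP21 and 3335 and 2907 CPM in MP21. Bst2, which tethers virus particles, had 499 and 231 CPM and 348 and 315 CPM. Ifi44 had 32.6 and 211 CPM in FP21 and 69.7 and 214 CPM in MP21, with 1 cell giving 46.9% and 60.0% of the reads of the mesench gate. Its log2 change was 2.41 (SE 0.59, adjusted p = 0.581 in edgeR). Gbp4, a guanylate-binding protein, had 108 and 184 CPM in FP21 and 112 and 230 CPM in MP21. Igtp, named after its values were seen, had 51.0 and 316 CPM in FP21 and 112 and 372 CPM in MP21, with a log2 change of 2.44 (SE 0.51, adjusted p = 0.248 in edgeR). Its mesench plates overlapped the CD31 gate in FP21 (30.8 and 614 CPM), where 1 cell gave 77.4% of the reads. Of the 9 MHC class I and II genes, which display peptides to T cells, 0 were higher and 5 lower in both mice in CPM (0 and 3 after TMM scaling), with a median log2 change of -0.28; B2m, the shared light chain of class I, had 3860 and 2294 CPM in FP21 and 4651 and 4099 CPM in MP21.

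Gene by gene, the gate ratio of one mouse said little about that of the other. Across the 3884 genes with a mean of at least 50 CPM, Pearson's r between the 2 mice's log2 ratios was 0.07 and Spearman's rho 0.12, and 54.7% had the same sign. These are descriptions across genes, which are not independent replicates. The median size of the log2 ratio between gates was 0.70 in FP21 and 0.60 in MP21. Between the 2 mesench plates of 1 mouse, which hold fewer cells, it was 0.89 and 0.93. The spread between plates of one gate and mouse was thus at least as large as the gap between gates. The median standard error of the fitted log2 change was 0.64 for these genes. The median log2 ratio over all genes tested was -0.62 in FP21 and -0.20 in MP21 in CPM; TMM scaling added 0.37 and 0.14 to the ratios, and the median fitted change was -0.24.

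**Figure D3:**
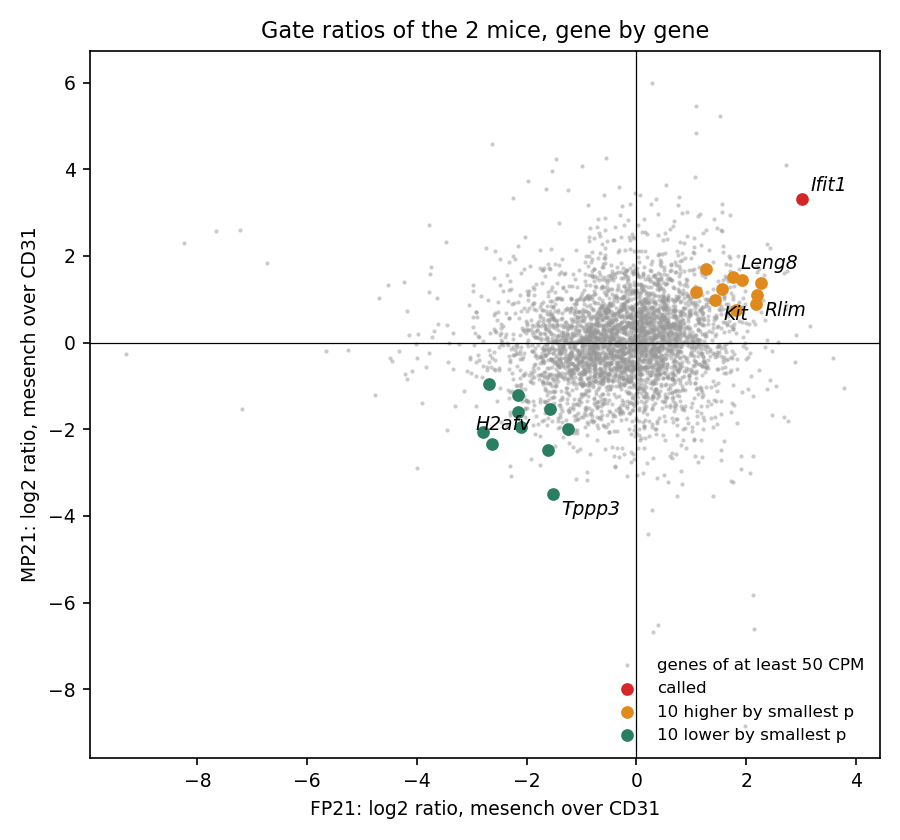
Log2 ratio of CPM, mesench over CD31, in FP21 (x axis) against MP21 (y axis) for genes of at least 50 CPM (grey), with the called gene Ifit1 and the 10 higher and 10 lower genes with the smallest unadjusted p. The grey cloud shows almost no slope (r = 0.07), and the coloured genes were chosen for lying in the same direction in both mice.

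Since fewer than 6 genes were called, the genes with the smallest unadjusted p are given as values. They had to lie in the same direction in both mice, reach a mean of 50 CPM in the higher gate and have a read in 25% of its cells; 384 genes met this in the higher and 742 in the lower direction, and Ifit1 did not, for lack of cells with a read. The 10 higher genes were Rlim, Hnrnph2, Stt3a, Leng8, Prcp, Kit, Pcnx, Elmo1, Xbp1 and Cct8, with log2 changes from 1.38 to 2.07, unadjusted p from 0.000667 to 0.00338 and adjusted p from 0.742 to 0.785 in edgeR. Their choice fixed the direction. All 10 were also above the CD31 gate of their mouse on all 4 mesench plates, as were 2.93% of all genes tested, and from genes chosen in this way nothing is read into that.

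Kit, the receptor of stem cell factor and a marker of general capillary cells, had the highest level of the 10. Kit (chromosome 5, 75574916 to 75656722, plus strand) had 635 CPM in the CD31 gate and 1721 in the mesench gate of FP21, and 740 and 1474 CPM in MP21, so the gates did not overlap. The log2 change was 1.47 (SE 0.42, 95% interval 0.61 to 2.32, adjusted p = 0.783 in edgeR). It was read in 189 of 217 and 44 of 50 cells in FP21 and 139 of 182 and 52 of 82 cells in MP21, so the share of cells with a read was not higher in the mesench gate of MP21. The CD31-gate Car4- cells (Early and Late) of the P7 female mouse, in the run of the FP21 mesench cells, had 809 CPM. Those of the P1 male mouse, in the run of the MP21 mesench cells, had 273 CPM. Kit had 506 CPM in the 9 mesench-gate Car4- cells (Early and Late) of the P7 female mouse, from a further run. That was under the CD31 gate of the same mouse.

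Among the other 9, Stt3a and Xbp1 belong to the secretory pathway. Stt3a, the catalytic subunit of an oligosaccharyltransferase that adds sugars to new proteins, had 49.7 and 239 CPM in FP21 and 80.3 and 209 CPM in MP21. Xbp1, a transcription factor of the unfolded protein response, had 335 and 712 CPM in FP21 and 280 and 629 CPM in MP21. Their gates did not overlap. Rlim, a ubiquitin ligase encoded on the X chromosome, had 92.3 and 420 CPM in FP21 and 155 and 332 CPM in MP21. Hnrnph2, an RNA-binding splicing factor, had 63.9 and 242 CPM and 96.6 and 264 CPM. For both, each mesench value lay above each CD31 value. Prcp, a lysosomal carboxypeptidase, had 148 and 438 CPM in FP21 and 200 and 475 CPM in MP21. Elmo1, a partner of Dock proteins in Rac activation, had 100 and 242 CPM and 74.5 and 243 CPM, with 1 cell giving 45.9% of the CD31-gate reads and 1 cell 44.2% of the mesench-gate reads of MP21. Cct8, a subunit of the TRiC chaperonin, had 147 and 516 CPM in FP21 and 181 and 305 CPM in MP21, where 1 cell gave 36.3% of the mesench-gate reads. Leng8 had 117 and 394 CPM in FP21 and 45.0 and 128 CPM in MP21, the only one of these genes whose mesench value in MP21 was close to the CD31 value of FP21, and Pcnx had 96.1 and 435 CPM and 119 and 220 CPM. In Pcnx and Xbp1 1 cell gave 35.9% and 34.0% of the mesench-gate reads of FP21; in the 6 genes other than these and Elmo1 and Cct8 the highest such share of any sum was 28.6%. Of all genes tested 10.4% had both mesench sums above both CD31 sums. DESeq2 called 9 of the 10 (all but Cct8), as it did 2.39% of all genes tested. The 10 were chosen by p and direction on these same sums, so nothing is read into either comparison.

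The 10 lower genes were H2afv, Tppp3, Ubxn4, Uqcr10, Ndufa7, Hmgn1, Ap2s1, Cmtm3, Ndufa4 and Pitpna, with log2 changes from -2.26 to -1.30, unadjusted p from 0.000553 to 0.00871 and adjusted p from 0.742 to 0.785 in edgeR. All 10 were below the CD31 gate of their mouse on all 4 mesench plates, as were 24.1% of all genes tested. The choice of the 10 fixed their direction, so nothing is read into that. Tppp3, a tubulin-binding protein of the TPPP family, had 401 and 140 CPM in FP21 and 209 and 18.47 CPM in MP21 and the largest fitted change among the 10 (log2 -2.26, SE 0.59, adjusted p = 0.742 in edgeR). It was read in 92 of 217 and 14 of 50 cells of FP21 and in 46 of 182 and 7 of 82 cells of MP21. DESeq2 called Tppp3 and also H2afv and Ubxn4, limma called Tppp3 and Ndufa7, and edgeR on the 3884 genes of at least 50 CPM alone called Tppp3 (adjusted p = 0.0430). These calls use the same cells from which the 10 were chosen and are no separate support.

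Ndufa4, Ndufa7 and Uqcr10 encode parts of the respiratory chain. Ndufa4, a small subunit associated with cytochrome c oxidase, had 363 and 122 CPM in FP21 and 513 and 177 CPM in MP21. Ndufa7, of complex I, had 366 and 57.1 CPM and 354 and 182 CPM. Uqcr10, of complex III, had 243 and 54.5 CPM and 282 and 93.1 CPM. In each the 2 gates did not overlap. H2afv, a variant of histone H2A, had 190 and 30.8 CPM in FP21 and 272 and 53.5 CPM in MP21, and Hmgn1, a nucleosome-binding protein, 132 and 43.2 CPM and 291 and 52.2 CPM. Ap2s1, the small subunit of the AP-2 clathrin adaptor, had 137 and 31.7 CPM and 214 and 55.1 CPM. Ubxn4, which takes part in the breakdown of proteins of the endoplasmic reticulum, had 194 and 27.99 CPM and 251 and 59.9 CPM. Cmtm3 had 367 and 155 CPM and 468 and 118 CPM, and Pitpna, a phosphatidylinositol transfer protein, 198 and 44.3 CPM and 352 and 152 CPM. In all 6 both mesench values were under both CD31 values, as in 27.9% of all genes tested. For genes chosen by p and direction on these sums, nothing is read into that. In Tppp3, Ubxn4, Ndufa7 and Ap2s1 1 cell gave between 34.2% and 37.4% of the reads of a mesench sum, and in the other 6 of the 10 lower genes the highest such share of any sum was 31.3%.

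**Figure D4:**
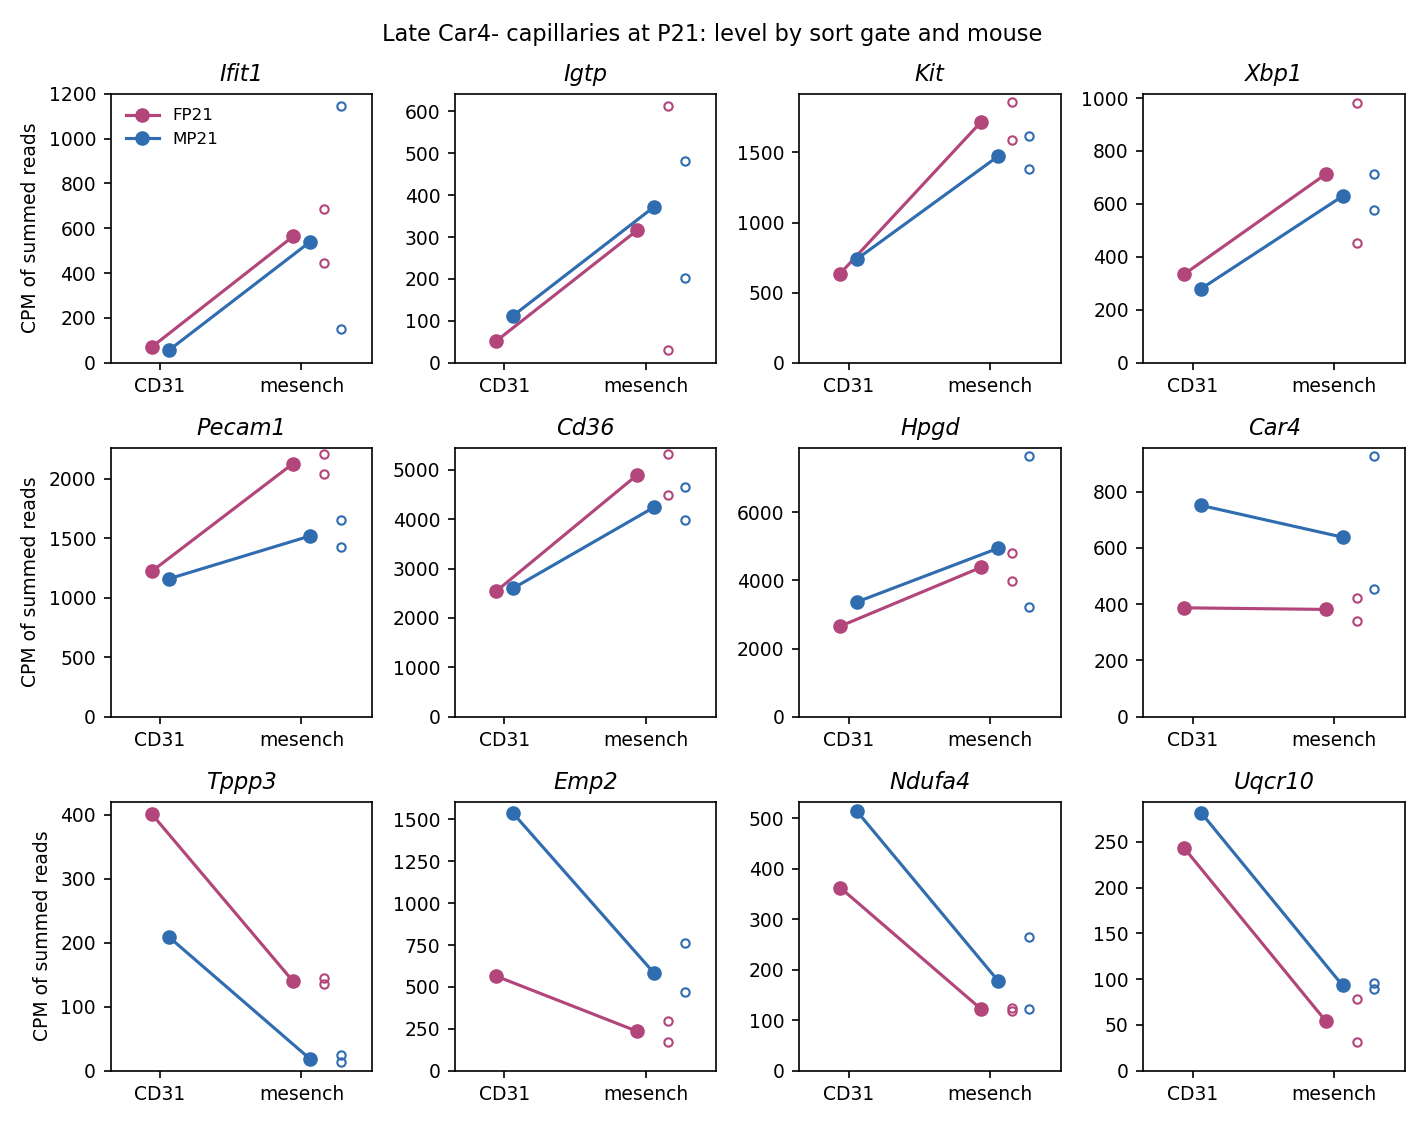
CPM of summed reads in the CD31 and mesench gates of FP21 and MP21 (filled points, joined within a mouse) and in the 2 mesench plates of each mouse (open points), for 12 genes. Ifit1 and Igtp have widely spread plates, Kit, Pecam1 and Cd36 have all plates above the CD31 gate of their mouse, and Tppp3, Emp2, Ndufa4 and Uqcr10 have all plates below.

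The genes of the sorted proteins gave no called difference. Pecam1 had 1221 CPM in the CD31 gate and 2126 CPM in the mesench gate of FP21, and 1158 and 1518 CPM in MP21. Its message was thus higher in the cells that were not sorted in the CD31 gate, on all 4 mesench plates. The log2 change was 0.85 (SE 0.41, 95% interval 0.00 to 1.69, unadjusted p = 0.0490, adjusted p = 0.820 in edgeR). Car4+ capillaries of the same mice had 1652 and 3107 CPM in FP21 and 1113 and 2574 CPM in MP21. Ptprc was at 0.185 and 0.0901 CPM in FP21 and 0.0560 and 0.181 CPM in MP21, too low to compare. Car4, the gene that names the subtypes, had 387 and 381 CPM in FP21 and 751 and 638 CPM in MP21, with a log2 change of 0.12 (SE 0.42, adjusted p = 1.00 in edgeR), whose sign is negative in CPM in both mice.

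The genes that mark general capillary and aerocyte identity gave 0 calls between the gates. Of the 12 general capillary genes 3 were higher and 0 lower in both mice in CPM, beside 16.3% and 37.6% of all genes tested, and 7 and 0 after TMM scaling, beside 23.2% and 30.6%. These are abundant genes, and of the 3884 genes of at least 50 CPM 907 were higher and 1214 lower in CPM. After TMM scaling 1333 of the 3884 were higher and 833 lower. The median log2 change of the 12 genes was 0.38, beside -0.24 over all genes tested and 0.11 over the genes of at least 50 CPM. Hpgd, which breaks down prostaglandins, had 2655 and 4389 CPM in FP21 and 3370 and 4948 CPM in MP21 (log2 0.89, SE 0.42, adjusted p = 0.805 in edgeR). Tmem100, a membrane protein of the BMP9 response, had 3286 and 3205 CPM and 4103 and 4333 CPM. Gpihbp1, which holds lipoprotein lipase on the capillary wall, had 3015 and 1414 CPM in FP21 and 2737 and 2792 CPM in MP21, a different direction in each mouse. Of the 11 aerocyte genes 0 were higher and 8 lower in both mice in CPM (1 and 5 after TMM scaling). Their median was -0.25, near the -0.24 of all genes tested but below the 0.11 of the genes of at least 50 CPM.

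Emp2, a tetraspan membrane protein, and Apln, the ligand of the apelin receptor, were the aerocyte genes with the smallest unadjusted p. Emp2 had 565 and 235 CPM in FP21 and 1539 and 582 CPM in MP21 (log2 -1.08, SE 0.41, adjusted p = 0.785 in edgeR). The gates overlap across mice, since MP21 was higher than FP21 in both. Apln had 25.4 CPM in the CD31 gate of FP21, read in 27 of 217 cells, and 0 reads in its 50 mesench-gate cells (95% Clopper-Pearson upper bound 7.11%; 6.00% if a count of 0 is taken to allow 3). In MP21 it had 80.7 CPM, in 31 of 182 cells, and 3.14 CPM, in 3 of 82 cells. In FP21 1 cell gave 39.3% of the CD31-gate reads of Apln, and in MP21 1 cell gave 98.7% of the mesench-gate reads.

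The 15 pan-endothelial genes split, with 4 higher and 3 lower in both mice in CPM (6 and 1 after TMM scaling), 0 called and a median log2 change of 0.24. Egfl7, a matrix protein secreted by endothelium, had 4976 and 2625 CPM in FP21 and 2722 and 2903 CPM in MP21. Cldn5, a tight junction claudin, had 3050 and 2567 CPM and 2596 and 1901 CPM, with a log2 change of -0.10 (SE 0.41). Calcrl, the receptor part of adrenomedullin signalling, had 2661 and 2514 CPM and 2719 and 4574 CPM. The 15 junction genes, of which 4 were higher and 6 lower in both mice in CPM (7 and 4 after TMM scaling), gave 0 calls.

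Among 10 genes of lipid, water and gas exchange, Cd36 was the most abundant. This fatty acid receptor had 2537 and 4899 CPM in FP21 and 2598 and 4245 CPM in MP21, with no overlap and all 4 plates above (log2 1.08, SE 0.42, 95% interval 0.23 to 1.93, adjusted p = 0.785 in edgeR). Car4+ capillaries had 1445 and 2922 CPM and 1996 and 4835 CPM. Aqp1, a water channel, had 1279 and 937 CPM in FP21 and 604 and 489 CPM in MP21. Of the 9 tested, 3 were higher and 3 lower in both mice in CPM (4 and 2 after TMM scaling), and 0 were called.

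Immediate early genes, which respond fast to stimuli such as cell handling, were abundant in both gates. Of 20 such genes 0 were called, 6 were higher and 2 lower in both mice in CPM (11 and 2 after TMM scaling), and the median log2 change was 0.36. Their sum was 13051 and 15407 CPM in FP21 and 13328 and 13905 CPM in MP21. Fos, a subunit of AP-1, had 1757 and 1722 CPM in FP21 and 1238 and 1617 CPM in MP21. Egr1, a zinc finger factor, had 787 and 1794 CPM and 876 and 1166 CPM (log2 1.05, SE 0.42, adjusted p = 0.785 in edgeR). Nr4a1, an orphan nuclear receptor, had 491 and 1233 CPM in FP21 and 400 and 479 CPM in MP21, where the groups overlap. The 12 heat shock and chaperone genes summed to 5627 and 5625 CPM in FP21 and 9132 and 8472 CPM in MP21, with 2 higher and 6 lower in both mice (3 and 3 after TMM scaling) and a median of 0.00. Hsp90ab1, the most abundant, had 2784 and 1525 CPM and 3476 and 3301 CPM.

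In the 10 genes of the shear response 2 were higher and 1 lower in both mice in CPM (5 and 0 after TMM scaling), and 0 were called. Thbd, thrombomodulin, had 1965 and 1644 CPM in FP21 and 1901 and 2627 CPM in MP21, and Klf2, a flow-induced factor, 633 and 367 CPM and 535 and 535 CPM. Of the 10 p53 targets 4 were higher and 2 lower in both mice (5 and 1 after TMM scaling) with 0 called; Cdkn1a, the p21 inhibitor of the cell cycle, had 932 and 762 CPM and 954 and 764 CPM. Bax, a pore-forming member of the Bcl2 family, had 189 and 56.1 CPM in FP21 and 165 and 36.9 CPM in MP21 (log2 -1.71, SE 0.62, adjusted p = 0.785 in edgeR). Of 12 genes of leukocyte adhesion and inflammation 5 were tested, 1 higher and 3 lower in both mice by either scaling, with 0 called; Irf1, an interferon regulatory factor, had 794 and 573 CPM in FP21 and 818 and 1086 CPM in MP21.

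Genes of mesenchymal transition gave 0 calls between the gates. Of the 9 tested, 2 were higher and 4 lower in both mice in CPM (3 and 1 after TMM scaling) and the median log2 change was 0.03. Vim, an intermediate filament protein of endothelium and mesenchyme, had 1612 and 1353 CPM in FP21 and 1286 and 733 CPM in MP21. Zeb1, a repressor of epithelial genes, had 276 and 222 CPM and 147 and 242 CPM. Of 10 hypoxia and glycolysis genes tested 1 was higher and 4 lower in both mice (2 and 1 after TMM scaling), and of 7 proliferation genes 0 and 5 (0 and 4), with 0 called in both lists. Cdk1, the kinase that starts mitosis, was read in 6 of 217 and 4 of 182 CD31-gate cells and in 0 of 50 and 0 of 82 mesench-gate cells, with Clopper-Pearson upper bounds of 7.11% and 4.40%, so a difference was not detectable at this number of cells. Of the nuclear long noncoding RNAs, Malat1 had 27372 and 12056 CPM in FP21 and 17698 and 20480 CPM in MP21, opposite directions in the 2 mice.

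Nuclear genes of oxidative phosphorylation were lower in the mesench gate of both mice for 8 of 12 genes in CPM (7 after TMM scaling), beside 37.6% and 30.6% of all genes tested, and higher for 0, with 0 called and a median log2 change of -0.57. Of the 3884 genes of at least 50 CPM, 1214 were lower in both mice in CPM and 833 after TMM scaling. The 12 oxidative phosphorylation genes summed to 3452 and 2108 CPM in FP21 and 4033 and 3145 CPM in MP21. Cox4i1, a subunit of cytochrome c oxidase, had 855 and 430 CPM in FP21 and 970 and 718 CPM in MP21. Atp5b, a catalytic subunit of ATP synthase, had 724 and 738 CPM and 872 and 745 CPM. Cox6c had 267 and 88.5 CPM and 332 and 200 CPM. In Car4+ capillaries the 12 genes summed to 3548 and 1613 CPM in FP21 and 3494 and 2740 CPM in MP21.

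Exon length moved with these genes. The oxidative phosphorylation genes had a median summed exon length of 1394 bases against 4414 for all genes tested, and the 10 lower genes had a median of 1838 bases against 7653 for the 10 higher. Among genes of at least 50 CPM the median fitted log2 change was -0.63 for the 88 genes of up to 1000 bases, -0.43 for the 429 up to 2000 bases, 0.06 for the 1120 up to 4000, 0.26 for the 1361 up to 8000 and 0.30 for the 883 longer ones. In CPM the shortest and longest bins had medians of -1.40 and -0.07 in FP21 and of -0.42 and 0.21 in MP21. The Car4+ capillaries had -1.60 and -0.27 in FP21 and -1.00 and 0.07 in MP21, so the order was the same in both subtypes. Genes under 2000 bases took 15.3% of reads in the CD31 gate and 9.14% in the mesench gate of FP21 (8.05% and 10.3% by plate), and 16.7% and 14.3% in MP21. They took 12.8% (P7 female) and 22.1% (P1 male) in CD31-gate Early and Late Car4- capillaries from the runs of the mesench cells. The part of exon length or library in the levels of short genes was not tested.

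**Figure D5:**
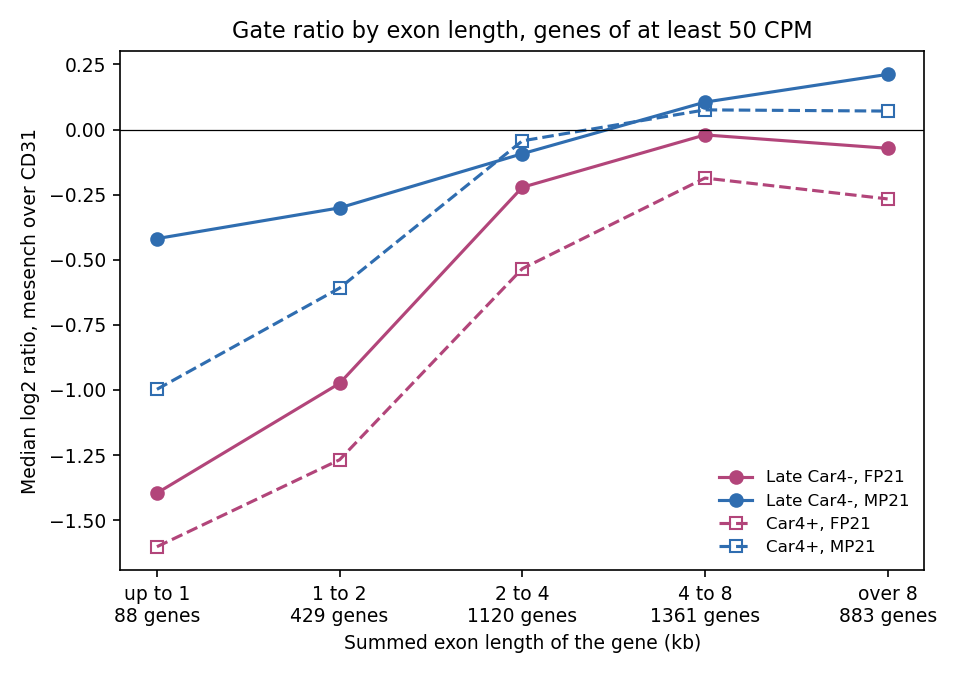
Median log2 ratio of CPM, mesench over CD31, for genes of at least 50 CPM in bins of summed exon length, in Late Car4- (filled, solid) and Car4+ (open, dashed) capillaries of each mouse. In all 4 lines genes of up to 1 kb have the lowest median, from -1.60 to -0.42, and genes over 4 kb lie near or above those of shorter bins.

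The Car4+ capillaries of the same mice and gates, with 44 and 13 cells in FP21 and 44 and 33 in MP21, were compared in the same way. Here edgeR gave 0 calls in 10375 genes (0%), and before adjustment 444 genes lay under 0.05; DESeq2 gave 320 calls. The difference of the gate effect between Late Car4- and Car4+ cells was tested as an interaction over 8 sums, where edgeR gave 0 calls in 12764 genes (0%), 426 genes lay under 0.05 before adjustment, and DESeq2 gave 399 calls. Ifit1 had 16.5 and 71.4 CPM in Car4+ cells of FP21 and 43.5 and 19.4 CPM in those of MP21. The interaction of Ifit1 was 2.84 on the log2 scale (SE 1.23, unadjusted p = 0.0493, adjusted p = 1.00 in edgeR). So the call in the Late Car4- cells was not shown to be particular to them. Of the 10 higher genes 3 were higher in both mice in Car4+ cells and 2 lower, and of the 10 lower genes 8 were lower in both and 0 higher. The shares of all genes in these directions are not given here for Car4+ cells, so these counts are not read as agreement between the subtypes. The aerocyte genes, lower in sum in the mesench gate of the Late Car4- cells, summed in Car4+ cells to 24286 and 28783 CPM in FP21 and to 29761 and 34426 CPM in MP21.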

How the data were processed

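Single cells of distal lung were sorted into plates and made into Tn5-cut libraries, per the labels' protocols. The deposited table of the authors gives counts of whole reads, by gene and cell and not normalized; the submitters' processing notes name STAR 2.5.2b and HTSeq 0.10, and the annotation is not given in the sources used here. It has 2931 columns of cells, of which 1280 were used and 1651 were not used here. Subtypes are the authors' labels; no doublet caller was run. A cell is 1 deposited sample and the mouse is the replicate (n = 2 mice).

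Reads of the 531 Late Car4- cells were summed per mouse and gate. CPM are reads of a gene per 1000000 reads of a sum. Sums were tested with edgeR 4.0.16 (TMM, filterByExpr, quasi-likelihood F test, mouse and gate as terms), with Benjamini-Hochberg adjustment over all genes tested and a call at 0.05. With 1 residual degree of freedom the spread rests mostly on the trend shared across genes (28.2 total degrees of freedom). Clopper-Pearson intervals cover counting error only. Intervals of log2 changes come from the edgeR fit and carry its spread, drawn mostly from that shared trend. Ratios of single mice use a floor of 3 reads per sum, and reads are not independent molecules. The gates are paired because both carry the same mouse name; the female minus male differences of the 2 gates correlated at 0.167 over 3884 genes (0.142 without the sex genes). P-values of this fit measure the spread between these 4 sums, moderated by the trend across genes, and do not cover other mice. Exon lengths and positions are from GENCODE M21 (GRCm38), which holds 18017 of 18072 symbols; the build behind the counts is not settled by the sources used here.

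Alternatives were DESeq2 1.42.0, limma 3.58.1 on log2 of the mean CPM over cells + 1, RLE factors, no filter beyond 1 read, 50000 reads per cell, no pairing, either mesench plate left out, cells under 1000 genes left out, and cells over 100 CPM of mesenchymal markers left out. A further 2 were chosen after seeing the data: leaving out the cell with the most Ifit1 reads in each sum, and genes of at least 50 CPM alone. Genes are named by this rule: same direction in both mice, at least 50 CPM on average in the higher gate and a read in 25% of its cells in both mice; since fewer than 6 genes were called, the 10 per direction with the smallest unadjusted p are given, with predicted, Riken, ribosomal and mitochondrial genes and pseudogenes left out. Members of lists were named by level or by p. The cells, gene lists and tests were chosen with earlier results of these data known.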

Additional observations from a re-analysis of the deposited data

Results flagged for a closer look

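Pcnx, a large membrane protein, had gate values of unlike direction in the 2 subtypes, mainly in MP21, which is why it is given again. In Late Car4- capillaries it had 96.1 CPM in the CD31 gate and 435 in the mesench gate of FP21, and 119 and 220 CPM in MP21. A single cell gave 35.9% of its mesench-gate reads in FP21. In Car4+ capillaries Pcnx had 77.6 and 67.6 CPM in FP21, close values, and 162 and 33.5 CPM in MP21. The difference of the 2 fitted log2 changes was 2.92 (SE 1.10, unadjusted p = 0.0283, adjusted p = 1.00 in edgeR), so it did not pass the test across all genes. Pcnx was chosen for its change in Late Car4- cells, which is part of this difference, so the choice inflates it. It is not alone among the genes named by p. In edgeR the interaction was 2.42 for Kit (SE 0.67, unadjusted p = 0.00664) and -2.14 for Tppp3 (SE 0.84, unadjusted p = 0.0342), neither of them called.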

How the results depend on the processing

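The number of genes called in the Late Car4- cells was 1 with edgeR. It was 296 with DESeq2 (of 1699 genes at an unadjusted p under 0.05), 4 with limma on the mean over cells, 5 with every gene of at least 1 read, 3 with genes of at least 50 CPM alone, and 1 with RLE factors or without cells under 1000 genes. It was 0 with cells thinned to 50000 reads (465 at an unadjusted p under 0.05 in edgeR), 0 with no replicate block, that is without pairing the gates within the mouse (945), 0 without mesench plate 1 (351) or plate 2 (402) of both mice, 0 without cells over 100 CPM of mesenchymal markers (557) and 0 without the cell with the most Ifit1 reads in each sum (737). The cause of the gap between tools was not tested. Leaving out a mouse leaves 1 sum per gate and 0 residual degrees of freedom, so only the log2 ratio of the mouse left can be given; for Ifit1 it was 3.31 without FP21 and 3.02 without MP21.

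In Car4+ cells the count of 0 became 320 with DESeq2 and 17 with every gene of at least 1 read, and for the interaction 0 became 399 and 14; both stayed at 0 with RLE factors and with no replicate block (pairing removed). Over its 12 alternatives Ifit1 kept its direction, with log2 changes from 2.04 to 4.18 and adjusted p from 5.841e-10 to 1.00. The 20 genes named by p kept their direction in 240 of 240 pairs of gene and setting. They were chosen for the same direction in both mice, and every setting uses the same cells or part of them. Nothing is therefore read into that count. Car4 changed sign without mesench plate 2 (-0.053), without cells under 1000 genes (-0.25), without the cell with the most Ifit1 reads (-0.0053), with genes of at least 50 CPM alone (-0.036), and in the single mice (-0.23 without FP21, -0.022 without MP21). The mean difference in the share of Late Car4- cells was -4.08 percentage points over all endothelial cells (-0.03 in FP21, -8.14 in MP21). Over capillary cells it was -5.83 (-2.52 in FP21, -9.14 in MP21). The mean difference in median genes per cell was -543, from opposite directions in the mice (-1131.5 in FP21, 46 in MP21). At 50000 reads it was -413 (-672.5 in FP21, -153 in MP21). Depth limits low genes: with 50 and 82 mesench-gate cells, 0 cells with a read have Clopper-Pearson upper bounds of 7.11% and 4.40%.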

Other observations

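Several genes were called under other settings alone and are given as values, having been named after those calls. With every gene of at least 1 read tested, edgeR also called Zfp251, Acss1 and Ttll1 beside Ifit1 and Igtp. Zfp251, a zinc finger protein, had 1.60 and 37.3 CPM in FP21 and 5.67 and 148 CPM in MP21 (CD31, then mesench), with 1 cell giving all the reads of the mesench gate in FP21 and 92.3% in MP21. Acss1, a mitochondrial acetyl-CoA synthetase, had 0 reads in both gates of FP21, and 0.0140 and 122 CPM in MP21, where 1 cell gave nearly all of the mesench reads. Ttll1, a tubulin glutamylase subunit, had 31.8 and 47.3 CPM in the CD31 gates, in 28 and 10 cells, and 0 reads in both mesench gates. On the mean over cells, limma called Prr13 and Pdrg1 beside Tppp3 and Ndufa7. Prr13 had 155 and 4.05 CPM in FP21 and 227 and 203 CPM in MP21, and Pdrg1 217 and 14.5 CPM and 219 and 83.6 CPM. In Prr13 and Pdrg1 1 cell gave at least 48.45% of the mesench reads in each mouse.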
